A study of Oryza sativa with 6 samples.

Results

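Enzymes of the Calvin cycle and the activase of its carboxylating enzyme were followed in the rice panicle through 10 of the 42189 loci in the deposited table. They were chosen by locus identifier for their place in the pathway, by a rule that uses no measured value, although earlier results of these data were known when the set was proposed: RBCS2 (LOC_Os12g17600), RBCS3 (LOC_Os12g19381), RCA (LOC_Os11g47970), GAPA (LOC_Os04g38600), GAPB (LOC_Os03g03720), FBA (LOC_Os11g07020), PRK (LOC_Os02g47020), SBPase (LOC_Os04g16680), plastid FBPase (LOC_Os03g16050) and PGK (LOC_Os05g41640). The table itself carries no gene names, so the pairing of identifier and name comes from the list that defined the set. By the chromosome number within each identifier, the set lies on chromosomes 2, 3, 4, 5, 11 and 12. All 10 passed the filter on low values, at least 1 TPM in at least 3 libraries.

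The Calvin cycle fixes carbon dioxide in the chloroplast stroma with the ATP and NADPH that the light reactions supply. Rubisco joins carbon dioxide to ribulose bisphosphate, a reduction phase turns the product into triose phosphate, and a regeneration phase rebuilds ribulose bisphosphate. In rice the cycle is best known from leaves, while the green hulls of the spikelet also hold chloroplasts.

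Panicles of 2 groups were sequenced, both in the cultivar Nipponbare: plants overexpressing OsEXPA7, an alpha-expansin of the kind that loosens cell walls (3 libraries, genotype label EXPA7_OE), and the wild type (WT, 3 libraries, genotype label EXPA7). All 6 carry the same treatment label, natural. The labels describe them as biological replicates. They do not give the panicle stage, the promoter of the transgene, the number of transgenic lines or whether replicates were separate plants, so p-values measure only the spread between these libraries. Values are TPM, a transcript abundance corrected for transcript length and scaled to the same total in each library, which keeps no sequencing depth.

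The locus paired with OsEXPA7 from general knowledge, LOC_Os03g60720, measured 4323 to 5077 TPM in overexpression libraries and 882 to 964 TPM in WT libraries. Across loci, libraries of one group correlated at 0.991 to 0.993 (Pearson, log2(TPM + 1)) and libraries of different groups at 0.948 to 0.953. Lists of marker loci, also paired with gene names from general knowledge, were used to check the tissue label. All 11 floral MADS and DL loci were detected, with summed levels of 1097 to 1119 TPM in overexpression libraries and 976 to 993 TPM in WT libraries. All 5 anther and tapetum loci were detected, with sums of 1242 to 1339 TPM in overexpression libraries and 1292 to 1367 TPM in WT libraries. No locus of either list was at 0. By limma (adjusted p under 0.05), 5 floral loci were higher and 1 was lower in overexpression panicles, and 1 anther and tapetum locus was higher and 2 were lower. Over all tested loci 25.3% were higher and 17.5% lower, so these small counts are a description only.

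The cycle genes did not move as a block. RCA and PRK were higher in overexpression panicles, RBCS2 and GAPB were lower, and 6 did not pass the threshold (limma on log2(TPM + 1), Benjamini-Hochberg adjusted p under 0.05 over 23395 tested loci, n = 3 per group). The difference between the genotypes was broad: 42.8% of all tested loci passed, 25.3% higher and 17.5% lower. Which direction was the more frequent depended on scaling: 5911 loci were higher and 4091 lower with TPM as given, against 4604 higher and 5464 lower after quantile normalization. Against that background, 4 calls among 10 loci, 2 in each direction, is close to the share of loci called anywhere. The median log2 change of the 10 was 0.14, beside 0.06 over all tested loci. None of the 10 reached an absolute log2 change of 1, and the changes ran from -0.74 for RBCS2 to 0.54 for RCA. Overexpression and WT libraries were fully separated at 6 of the 10 loci, and at 53.7% of all tested loci. In bulk tissue, fewer cells of a type and less RNA per cell cannot be told apart.

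**Figure D1:**
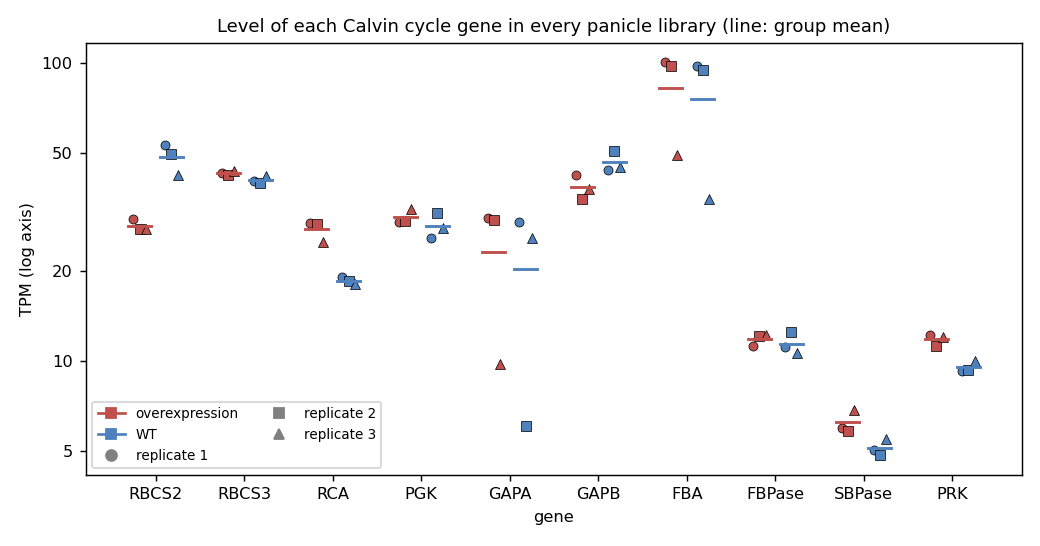
TPM (log axis) of each of the 10 genes in every library, with overexpression in red and WT in blue, a symbol per replicate and a line at each group mean. RBCS2 and RCA show clear gaps between the groups in opposite directions, while GAPA and FBA each have 1 low library in either group (GAPA 9.79 TPM in overexpression replicate 3 and 6.09 TPM in WT replicate 2).

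The carboxylation step was followed through 2 of the small subunit genes of Rubisco and through its activase. RBCS2, a nuclear gene for the small subunit, measured 29.9, 27.7 and 27.7 TPM in overexpression libraries and 52.9, 49.5 and 42.2 TPM in WT libraries. Every overexpression library lay below every WT library, and the replicates of overexpression lay closer together than those of WT. The level averaged 28.4 ± 1.29 TPM in overexpression panicles and 48.2 ± 5.47 TPM in WT panicles (SD, n = 3 each), so that it fell by 41.1%. Its log2 change of -0.74 ± 0.09 (SE) had a limma adjusted p of 0.000179, and it was called under all 14 alternatives.

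RBCS3, another small subunit gene, measured 42.6, 42.1 and 43.2 TPM in overexpression libraries and 40.2, 39.5 and 41.8 TPM in WT libraries. The ranges were narrow and did not overlap, but they lay side by side, and the log2 change of 0.07 ± 0.06 (SE) did not pass (limma adjusted p = 0.314). Its 95% confidence interval allows a fold of 0.965 to 1.15 on the log2(TPM + 1) scale. Small subunit genes of one genome are very similar in sequence, and the treatment of reads shared between copies is not given in the sources used here, which leaves values of single copies uncertain. The sum of both, which depends less on how reads were divided between these copies, was 72.5, 69.7 and 70.9 TPM in overexpression libraries and 93.1, 89.0 and 84.0 TPM in WT libraries. The sum was thus lower in each overexpression library than in any WT library, with a ratio of means of 0.801. Other small subunit copies lie outside this sum, so it does not stand for the whole gene family.

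RCA encodes Rubisco activase, which frees blocked Rubisco sites of bound sugar phosphates at the cost of ATP. It measured 29.1, 28.9 and 25.1 TPM in overexpression libraries and 19.2, 18.5 and 18.2 TPM in WT libraries. All overexpression libraries were above all WT libraries, with a gap wider than the spread inside either group. The ratio of means was 1.49, the log2 change was 0.54 ± 0.08 (SE), and the limma adjusted p was 0.00051. RCA was called under all 14 alternatives, and its log2 change stood at percentile 90.2 of all tested loci.

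The reduction phase runs from phosphoglycerate to triose phosphate. PGK, phosphoglycerate kinase, measured 29.3, 29.6 and 32.3 TPM in overexpression libraries and 25.8, 31.4 and 28.0 TPM in WT libraries. The groups overlapped, and the log2 change of 0.10 ± 0.08 (SE) did not pass (limma adjusted p = 0.372).

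GAPA and GAPB encode the A and B subunits of the plastid NADP-dependent glyceraldehyde phosphate dehydrogenase. GAPB measured 42.1, 35.0 and 37.8 TPM in overexpression libraries and 43.9, 50.7 and 44.6 TPM in WT libraries. All overexpression libraries lay below all WT libraries, though the highest overexpression library (42.1 TPM) and the lowest WT library (43.9 TPM) were close. It averaged 38.3 ± 3.60 TPM in overexpression panicles and 46.4 ± 3.75 TPM in WT panicles (SD, n = 3 each). The log2 change of -0.27 ± 0.08 (SE) passed (limma adjusted p = 0.0298). The call was held by 8 of 14 alternatives: it was lost, among others, without overexpression replicate 2 (limma adjusted p = 0.0889), overexpression replicate 3 (0.0798) or WT replicate 2 (0.109), with no filter (0.134) and with no variance trend (0.0544).

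GAPA measured 30.1, 29.7 and 9.79 TPM in overexpression libraries and 29.3, 6.09 and 25.9 TPM in WT libraries. In each group a pair of libraries lay near 30 TPM or just below, and 1 library lay far lower, replicate 3 of overexpression and replicate 2 of WT. The groups overlapped fully, and the log2 change of 0.28 ± 0.57 (SE) did not pass (limma adjusted p = 0.72). The 95% interval of the log2 change, -1.01 to 1.57, is the widest of the 10. Without WT replicate 2 the log2 change turned to -0.39 (limma adjusted p = 0.483).

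The regeneration phase holds the remaining enzymes. FBA, the plastid fructose bisphosphate aldolase that joins triose phosphates, was the most abundant of the set. It measured 100.2, 97.8 and 49.0 TPM in overexpression libraries and 97.5, 94.8 and 34.9 TPM in WT libraries. Here replicate 3 was low in both groups, while the other libraries of both genotypes nearly coincided. The log2 change of 0.19 ± 0.39 (SE) did not pass (limma adjusted p = 0.729) and turned to -0.29 without WT replicate 3 (limma adjusted p = 0.419).

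This spread inside groups set GAPA and FBA apart from the other cycle genes. The highest library exceeded the lowest 3.08-fold for GAPA and 2.05-fold for FBA in overexpression panicles, and 4.82-fold and 2.80-fold in WT panicles. Among the other 8 genes that fold was at most 1.20 in overexpression panicles and 1.25 in WT panicles. The residual spread of GAPA stood at percentile 99.9 and that of FBA at percentile 99.6 of all tested loci. A mean of 20 TPM or more was reached by 9922 loci, and 51 of them (0.514%) varied at least 2-fold inside both groups. Of the 7 cycle genes with that mean, GAPA and FBA were among the 51. The 2-fold limit lies just under the 2.05-fold of FBA, and both genes were singled out by this same spread. Their place among the 51 is therefore a description and no test of rarity.

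FBPase and SBPase, the plastid fructose and sedoheptulose bisphosphatases, remove a phosphate in steps that are irreversible in the chloroplast and are activated in the light through thioredoxin. FBPase measured 11.3, 12.2 and 12.3 TPM in overexpression libraries and 11.2, 12.5 and 10.7 TPM in WT libraries. The groups overlapped, and the log2 change was 0.05 ± 0.09 (SE, limma adjusted p = 0.654), with a 95% interval of -0.14 to 0.25.

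SBPase, the least abundant of the 10, measured 5.999, 5.86 and 6.88 TPM in overexpression libraries and 5.03, 4.85 and 5.50 TPM in WT libraries. Each overexpression library was above each WT library. The log2 change of 0.24 ± 0.10 (SE) did not pass over all loci (limma adjusted p = 0.0818). It passed in 1 of 14 alternatives, that with no variance trend (limma adjusted p = 0.0497).

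PRK, phosphoribulokinase, makes the acceptor ribulose bisphosphate from ribulose phosphate with ATP. It measured 12.3, 11.2 and 12.0 TPM in overexpression libraries and 9.28, 9.38 and 10.01 TPM in WT libraries. The groups did not overlap and were tight, averaging 11.8 ± 0.557 TPM in overexpression panicles and 9.55 ± 0.394 TPM in WT panicles (SD, n = 3 each). The log2 change of 0.28 ± 0.08 (SE) passed (limma adjusted p = 0.0199). The call was lost with quantile normalization (limma adjusted p = 0.0741) and without overexpression replicate 1 (0.0546), overexpression replicate 3 (0.0693), WT replicate 1 (0.0677) or WT replicate 2 (0.0648), with the log2 change between 0.19 and 0.32 throughout.

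**Figure D2:**
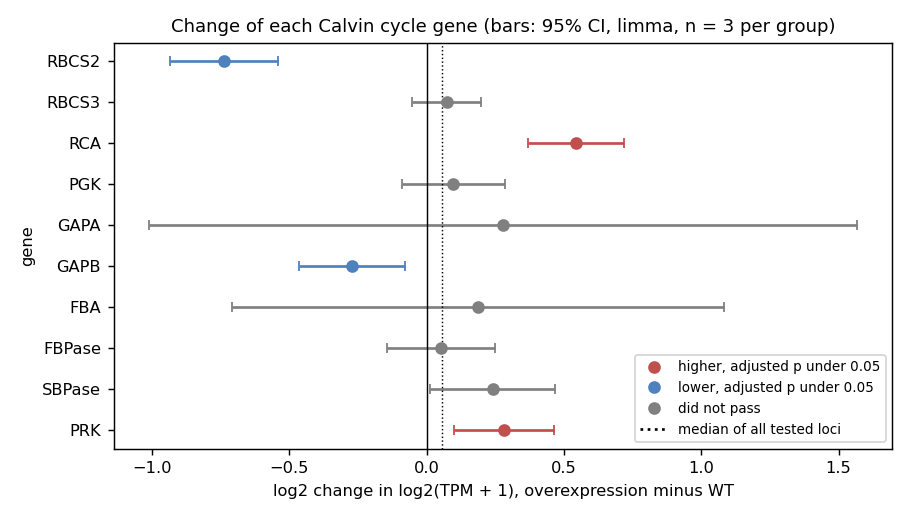
Log2 change (overexpression minus WT, log2(TPM + 1) scale) of each gene with its 95% confidence interval from limma, n = 3 per group; the dotted line is the median of all tested loci, 0.06. RCA and PRK lie right of 0, RBCS2 and GAPB left of it, and GAPA and FBA have the widest intervals.

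In order of mean TPM, the overexpression panicles ran FBA, RBCS3, GAPB, PGK, RBCS2, RCA, GAPA, FBPase, PRK and SBPase. In the WT panicles the order was FBA, RBCS2, GAPB, RBCS3, PGK, GAPA, RCA, FBPase, PRK and SBPase. In overexpression panicles, neighbours in that order overlapped between RBCS3 and GAPB and along the whole run PGK, RBCS2, RCA, GAPA and FBPase, PRK, with the low library of GAPA reaching under FBPase. In WT panicles, FBA overlapped RBCS2, RBCS2 overlapped GAPB, and PGK, GAPA and RCA overlapped in turn. RBCS2 thus moved down 3 places in overexpression panicles, to the level of PGK and RCA. Ranks among all 42189 loci, taken over the 6 libraries, reached 1812 for FBA in a WT library and 17807 for SBPase in a WT library.

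Summed over the 10 genes, the level was nearly equal between genotypes: 332.9, 319.9 and 256.0 TPM in overexpression libraries and 334.3, 317.2 and 261.7 TPM in WT libraries. Replicate 3 was lowest in each group, the library in which FBA was low. In overexpression replicate 3 GAPA was low as well. Without FBA and GAPA, a sum chosen after the values were seen, the other 8 genes gave 197 ± 5.07 TPM in overexpression panicles and 208 ± 7.70 TPM in WT panicles (SD, n = 3 each), and the groups overlapped.

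Ratios between genes of one library do not depend on the scaling of TPM to a fixed total. With 3 libraries against 3, an exact permutation test cannot give less than p = 0.1, so none of the 5 ratios compared could pass a threshold of 0.05. The ratio of RCA to the sum of RBCS2 and RBCS3 was 0.401, 0.414 and 0.354 in overexpression libraries and 0.206, 0.208 and 0.217 in WT libraries. It was 1.85-fold higher in overexpression panicles (mean of logs), with no overlap (two-sided exact permutation p = 0.1, adjusted p = 0.167 over 5 ratios).

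RBCS2 was below RBCS3 in all overexpression libraries, at ratios of 0.702, 0.658 and 0.639, and above it in all WT libraries, at 1.32, 1.25 and 1.009. The order of these 2 small subunit genes was thus inverted between the genotypes, with the limit on single copies given above (two-sided exact permutation p = 0.1, adjusted p = 0.167). PRK relative to GAPB was 0.292, 0.321 and 0.318 in overexpression libraries and 0.212, 0.185 and 0.224 in WT libraries, again without overlap (two-sided exact permutation p = 0.1, adjusted p = 0.167). The separation of these ratios, and of RCA to the small subunit sum, was fixed by that of their parts. RCA, PRK and RBCS3 were higher in every overexpression library than in any WT library. RBCS2, GAPB and the small subunit sum were lower in each. These ratios thus restate the values given above and add no separate support.

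The remaining ratios overlapped between the genotypes. SBPase relative to FBPase was 0.533, 0.481 and 0.561 in overexpression libraries and 0.449, 0.388 and 0.515 in WT libraries (two-sided exact permutation p = 0.2, adjusted p = 0.25). GAPA relative to GAPB was 0.715, 0.849 and 0.259 in overexpression libraries and 0.669, 0.12 and 0.580 in WT libraries (two-sided exact permutation p = 0.5, adjusted p = 0.5). That last ratio followed the libraries in which GAPA was low.

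**Figure D3:**
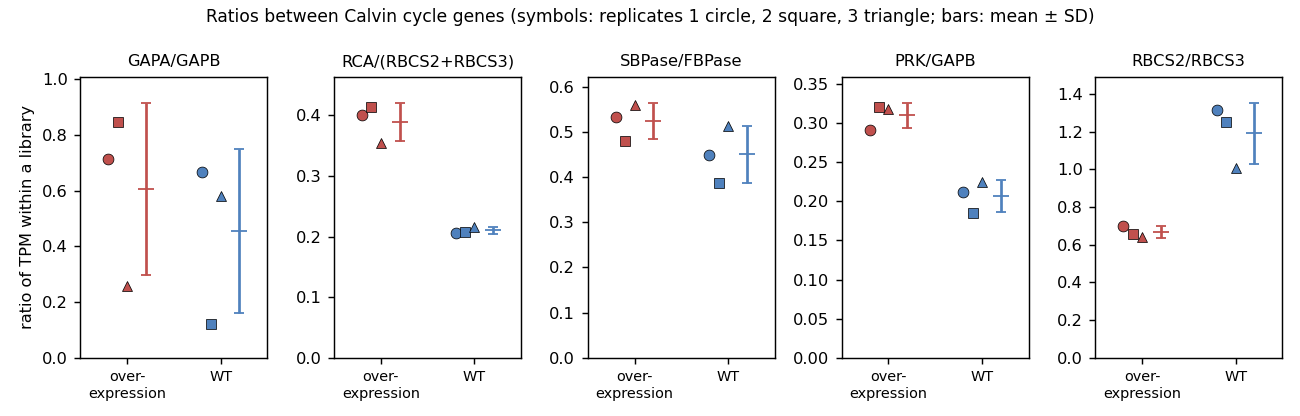
Ratios of TPM between cycle genes within each library, overexpression in red and WT in blue, with a symbol per replicate and bars for mean ± SD (n = 3); each panel starts at 0. RCA/(RBCS2+RBCS3) and PRK/GAPB are higher in all overexpression libraries, RBCS2/RBCS3 is lower in all of them, and SBPase/FBPase and GAPA/GAPB overlap.

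The rest of the cycle was described from a list of 10 further loci (other small subunit copies, transketolases, triose phosphate isomerase, pentose phosphate isomerase and epimerase, and the regulatory protein CP12), paired with names from general knowledge and for that reason counted and not named. Of these, 9 were in the table and tested: 4 rose, 3 fell and 2 did not pass, with a median log2 change of 0.16 and a range from -1.19 to 0.52. The list, like the 10 genes, moved in both directions, but the directions differed by kind of protein. The 3 that fell were paired with CP12, which held the -1.19, or with a small subunit copy. The 4 that rose were paired with transketolases, triose phosphate isomerase and pentose phosphate isomerase. Its shares were 44.4% higher and 33.3% lower, beside 25.3% and 17.5% over all tested loci.

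Neighbouring pathways were described in the same way. Of 15 tested loci (of 16 listed) of photorespiration, which recycles the product of Rubisco's oxygenase reaction, 6 rose, 1 fell and 8 did not pass, with a median log2 change of 0.14. Some of those that rose were low loci, and with the 5 TPM filter 4 rose and 1 fell. Of 10 tested loci for cytosolic counterparts of cycle enzymes, which serve glycolysis and sucrose synthesis, 4 rose, none fell and 6 did not pass by limma (5 higher and 0 lower at an unadjusted p under 0.05), with a median log2 change of 0.07. The remaining locus of that list of 11 was listed at 0 in every library. Over all tested loci 25.3% were higher and 17.5% lower, beside 40% and 6.67% in photorespiration and 40% and 0% among cytosolic counterparts.

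Loci of the light reactions, which mark green tissue, were described last. Of 15 tested, 9 fell, none rose and 6 did not pass by limma (9 lower and 0 higher at an unadjusted p under 0.05). The shares were 0% higher and 60% lower, beside 25.3% and 17.5% over all tested loci. The median log2 change was -0.28, with a range from -0.81 to 0.30. Both ends of that range are loci that did not pass, each with 1 library far from the others of its group. The summed level of the 15 loci was 2053 to 2271 TPM in overexpression libraries and 2663 to 2896 TPM in WT libraries, without overlap. A large part of that gap was 1 locus, with means of 425 TPM in overexpression and 737 TPM in WT panicles. By names from general knowledge, the lower loci were mostly those of light-harvesting proteins, and some loci of that kind did not pass. Most photosystem subunit loci of the list did not pass either. None of the 15 was at 0. This lower summed level of the light reaction list stands beside the lower RBCS2 and GAPB and the 3 lower loci of the other cycle list. It stands equally beside the higher RCA and PRK and the 4 higher loci of that list. Its part in those results was not tested.

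**Figure D4:**
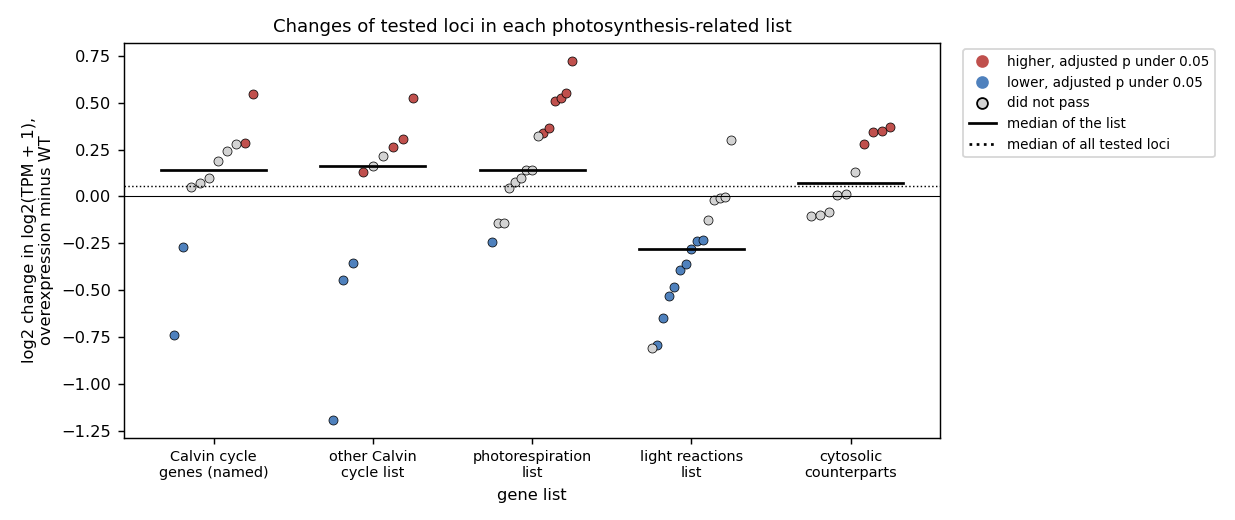
Log2 change (overexpression minus WT, log2(TPM + 1) scale) of every tested locus in each list, coloured by call, with the list's median as a solid line and the median of all tested loci as a dotted line. The cycle genes and the other cycle list spread to both sides of 0, while 9 of 15 light reaction loci fell and none rose.

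Among all other tested loci, the 2 whose pattern was most like the mean standardised log2(TPM + 1) profile of the 10 genes over the 6 libraries were LOC_Os08g31569 and LOC_Os07g08510, both with a Pearson r of 0.998. The libraries fall into 2 groups, and the profile averages genes that moved in opposite directions, so this likeness is a description only. LOC_Os08g31569 measured 13.03, 11.3 and 12.2 TPM in overexpression libraries and 7.27, 8.68 and 7.17 TPM in WT libraries. LOC_Os07g08510 measured 3.30, 2.83 and 3.06 TPM in overexpression libraries and 1.79, 2.07 and 1.604 TPM in WT libraries.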

How the data were processed

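Panicle RNA of 6 libraries (3 overexpression, 3 WT, grouped by title) was measured. The deposited table holds TPM, which sum to an equal total per library. For the aligner, counter and gene models, nothing is given in the sources used here. Mouse builds (GRCm38, mm10) are listed in the submitters' processing notes, which goes against the rice identifiers and could not be resolved. TPM keeps no depth, so no counting interval or detection limit is given. The log2(TPM + 1) values of 23395 loci (1 TPM or more in 3 or more libraries) were tested with limma 3.58.1 in R 4.3.3 (variance trend, two-sided, Benjamini-Hochberg over all tested loci, threshold 0.05), after the fit was tested on simulated data. This scale understates the change of low loci. Ratios between genes were tested by exact permutation. Named genes were all 10 cycle genes and the 2 loci of most similar profile, with OsEXPA7 given as the check of the labels; loci of other lists are counted only. The members and lists were chosen with earlier results of these data known. Alternatives were quantile and median-of-ratios scaling, no variance trend, a robust fit (added after seeing the data), a 5 TPM filter or none, a 0.1 pseudocount, a replicate block, and the omission of each library in turn.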

Additional observations from a re-analysis of the deposited data

How the results depend on the processing

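RBCS2 and RCA passed in the same direction under all 14 alternatives, with log2 changes of -0.83 to -0.67 and 0.43 to 0.61. GAPB kept its log2 change of -0.27 but did not pass with no filter, no variance trend (limma adjusted p = 0.0544) or the replicate block (limma adjusted p = 0.054), and ranged from -0.34 to -0.21 with 1 library left out. PRK was 0.19 with quantile normalization and did not pass; with 1 library left out it ranged from 0.26 to 0.32. SBPase, at 0.24, passed with no variance trend. The number of cycle genes called higher was 1 with quantile normalization, and 1 to 2 with 1 library left out; the number called lower was 1 with no filter, no variance trend or the replicate block, and 1 to 2 with 1 library left out. Genes that did not pass changed sign under some settings: with quantile normalization RBCS3 was -0.028, FBPase -0.033 and PGK -0.011, and FBPase was -0.00021 with median-of-ratios scaling. With 1 library left out, GAPA ranged from -0.39 to 0.78, FBA from -0.29 to 0.52 and the log2 difference of GAPA/GAPB from -0.21 to 1.11. Without FBA and GAPA the summed level was 197 TPM in overexpression and 208 TPM in WT panicles, by construction. Photorespiration loci called lower numbered 2 with either scaling, cytosolic counterparts called lower 1 with quantile normalization, and light reaction loci called higher 0 to 1 with 1 library left out. Over all loci, 5911 were higher and 4091 lower in the main comparison, 5112 and 4975 with median-of-ratios scaling, and 4604 and 5464 with quantile normalization. Except where named, the cause was not tested. Replicate numbers are shared between the groups without any label that pairs them; deviations of same-numbered libraries correlated at 0.097, -0.0988 and -0.0685, and the replicate block gave 5513 higher and 3751 lower loci. Unknown depth limits what can be said of low loci.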
